A study of Mus musculus with 6 samples.

Results

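Microglia retaining homeostatic markers were examined in cortical lesions of mice after photothrombotic (PT) injury, in which light and a dye close cortical vessels. Members were chosen by measured values from all 6 single-nucleus libraries. A nucleus was a member if it had at least 1000 unique molecular identifiers (UMIs) with under 5% mitochondrial, if at least 3 of 7 microglia genes (P2ry12, Siglech, Sall1, Cx3cr1, Tmem119, Gpr34 and P2ry13) had a UMI, and if at most 1 of 7 genes of other cells (Cd163, Mrc1, F13a1, Stab1, Fabp4, Cd3e and Col1a2) had one. Of 67360 deposited barcodes, 60729 were eligible, and 1986 of these (3.27%) were members.

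The libraries came from lesions at 7 and 21 days post injury (dpi), in 3 conditions. Control mice were wild-type with no treatment given in the labels, ADWA11 mice were wild-type and were dosed once a week, starting with the injury, with an antibody blocking integrin αvβ8, and Tgfbr2-cKO mice carried Col1a2(creER) and Tgfbr2(flox). In the last, tamoxifen-inducible Cre under Col1a2 removes the type II TGFβ receptor from fibroblasts, so the receptor of microglia themselves was not the target. All mice carried the PT injury, and there was no uninjured group. Each library pooled tissue of 1 male and 1 female mouse and was the only library of its group, so each value compares single libraries and no test between conditions was run. Values of nuclei called female and male, which come from different animals, are given for some results. Intervals are exact 95% intervals for counting error only. The study's methods describe, for its experiments in general, an isotype antibody as the control of ADWA11 and tamoxifen for the controls of knockouts, but not which of these the wild-type mice of the libraries received.

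Microglia are the resident macrophages of the brain parenchyma. They depend on CSF1R signalling and keep their resting identity through TGFβ, which their surface integrins and those of neighbouring cells release from a latent complex. After injury they divide, lose transcripts such as P2ry12 and Tmem119, and gain transcripts of lipid handling and phagocytosis that are shared with invading macrophages. Of the genes in the rule, P2ry12, P2ry13 and Gpr34 encode nucleotide or lipid receptors, Cx3cr1 the fractalkine receptor, Siglech a sialic acid-binding lectin, Tmem119 a membrane protein and Sall1 a transcription factor of microglia.

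The wild-type control library held 330 members at 7 dpi and 192 at 21 dpi, Tgfbr2-cKO held 973 and 466, and ADWA11 held 20 and 5. Members numbered 1961 in the 4 control and Tgfbr2-cKO libraries. Their median depth at 7 dpi was 5515.5 UMIs in control, 4226 in Tgfbr2-cKO and 9048 in ADWA11, and at 21 dpi 5302.5, 5628.5 and 10873. No member barcode was shared between libraries, although each pair of libraries shared 21 to 61 barcodes overall. Total UMIs over all barcodes ran from 64798965 to 140310354 per library. Of the members, 961 were female by their transcripts, 572 male, and the rest mixed or without a call.

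The label was checked against genes that the rule did not use. At least 2 of 6 genes shared by all myeloid cells were detected in 1878 of the 1986 members, but in 13 of the 20 ADWA11 members of 7 dpi against 322 of 330 in control and 916 of 973 in Tgfbr2-cKO. Of these 20 nuclei, 12 held 2 or more fibroblast genes, as did 94 of 330 control and 12 of 973 Tgfbr2-cKO members at 7 dpi. At 21 dpi 51.0% of control, 4.29% of Tgfbr2-cKO and 80% of ADWA11 members held as many. Tgfbr1, the type I TGFβ receptor, known to be high in microglia, had a UMI in 93.6% of control and 92.1% of Tgfbr2-cKO members at 7 dpi, in 97.4% and 96.1% at 21 dpi, and in 80% and 60% of ADWA11 members. After thinning every nucleus to 1000 UMIs these shares were 57.6%, 60.1%, 64.1% and 65.2% in the 4 larger libraries, 25% and 20% with ADWA11, and 3.88% to 19.0% in nuclei without myeloid genes, whose median depth ran from 5628 to 11256.5 UMIs. Olfml3, a secreted olfactomedin-like protein of microglia, was sparser, with a UMI after thinning in 3.64% to 8.53% of members of the 4 larger libraries, 1 of 20 and 0 of 5 ADWA11 members, and 0.604% to 2.40% of nuclei without myeloid genes. Other homeostatic genes separated less. Sparc, a matrix-binding protein that other cells also make, was detected after thinning in 19.7% of 7 dpi control members and 25.8% of nuclei without myeloid genes, and in 12.5% and 31.1% at 21 dpi, and Nav3 in 75.0% and 68.0% in 7 dpi Tgfbr2-cKO. For Tgfbr1 the interval of the 20 ADWA11 members of 7 dpi (8.66 to 49.1%) lay below that of control (52.0 to 63.0%), and the 5 of 21 dpi were too few to place (0.505 to 71.6%). These nuclei are called ADWA11 members below only because they met the rule.

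Values of the rule's own genes describe the choice and are not results. P2ry12 had a UMI in 83.1% to 90% of the members of the libraries with at least 20, Cx3cr1 in 70% to 92.7%, Sall1 in 55.2% to 69.7% and Gpr34 in 50.3% to 62.5%. Siglech was detected in 37.9% of control and 52.1% of Tgfbr2-cKO members at 7 dpi, in 22.4% and 47.4% at 21 dpi, and in 5% of the 20 ADWA11 members. Tmem119 was detected in 14.5% to 26.8% and P2ry13 in 7.88% to 20.6%. In nuclei without myeloid genes P2ry12 had a UMI in 2.70% to 9.65%.

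Members near the threshold are given once. In the 7 dpi control, 178 members had exactly 3 of the microglia genes, 103 had 4 and 49 had 5 or more. Just outside, 250 nuclei had exactly 2 of them and at least 2 of the genes shared by myeloid cells, which members did not need. The corresponding numbers in 7 dpi Tgfbr2-cKO were 451, 313 and 209 with 479 outside, in the 21 dpi control 111, 58 and 23 with 201 outside, and in 21 dpi Tgfbr2-cKO 201, 153 and 112 with 266 outside. With ADWA11 at 7 dpi, 18 members had 3, 2 had 4 and none had 5 or more, with 55 just outside. P2ry12 in the 7 dpi control measured 228 UMIs per 1000000 non-mitochondrial UMIs (CPM) in nuclei with 2 of the genes, 399.8 with 3, 542 with 4 and 675 with 5 or more. Csf1r, the receptor for CSF1 and outside the rule, followed at 382, 528, 651 and 877 CPM, and Gpnmb, a glycoprotein of phagocytes, ran the other way at 1492, 587, 390.3 and 423 CPM. Csf1r is among the genes shared by myeloid cells, so its level in nuclei with 2 was partly set by their choice.

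Members made up a larger share of the eligible nuclei with fibroblast-specific loss of Tgfbr2 than in control at both time points, and a far smaller share with ADWA11. At 7 dpi the share was 4.17% in control (330 of 7906, 3.74 to 4.64%), 8.96% in Tgfbr2-cKO (973 of 10856, 8.43 to 9.52%) and 0.183% in ADWA11 (20 of 10914, 0.112 to 0.283%). At 21 dpi it was 1.59% in control (192 of 12069, 1.38 to 1.83%), 7.36% in Tgfbr2-cKO (466 of 6328, 6.73 to 8.04%) and 0.0395% in ADWA11 (5 of 12656, 0.0128 to 0.0922%). On the log2 scale the ratio to control was 1.10 (0.92 to 1.29) for Tgfbr2-cKO and -4.51 (-5.24 to -3.86) for ADWA11 at 7 dpi, and 2.21 (1.97 to 2.46) and -5.33 (-6.97 to -4.08) at 21 dpi. The 21 dpi control stood below the 7 dpi control by a log2 ratio of -1.39 (-1.66 to -1.13). Both treated libraries of a time point were set against the same control library.

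The genes used to leave nuclei out also differed between the libraries. Stab1, a scavenger receptor of macrophages, and Col1a2, a collagen of fibroblasts, were counted as genes of other cells, yet Col1a2 had a UMI in 71.4%, 63.8% and 7.69% of all eligible nuclei in 7 dpi control, ADWA11 and Tgfbr2-cKO, and in 87.4%, 72.9% and 19.4% at 21 dpi. A total of 2233 nuclei had at least 3 microglia genes and were left out by the other genes, of which 2179 had Stab1 and 1547 had Col1a2. Per library they were 805, 513 and 182 for control, ADWA11 and Tgfbr2-cKO at the earlier time, and 426, 68 and 239 at the later one.

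Without counting Stab1 and Col1a2 as other-cell genes, the order of control and Tgfbr2-cKO at 7 dpi turned. The share was then 12.7% in control (1003 nuclei), 10.3% in Tgfbr2-cKO (1123) and 2.14% in ADWA11 (234) at 7 dpi, a log2 ratio of -0.29 for Tgfbr2-cKO against control. At 21 dpi it was 4.37% (527), 9.80% (620) and 0.261% (33), and the log2 ratio of Tgfbr2-cKO to control stayed above 0 at 1.17. With none of the other-cell genes applied, the shares were, at 7 dpi, 14.4% for control, 4.88% for ADWA11 and 10.6% for Tgfbr2-cKO, and later 5.12%, 0.577% and 11.1% in that order. Against control, the 7 dpi share in Tgfbr2-cKO thus depended on which genes were excluded. The 21 dpi share in Tgfbr2-cKO was higher, and both ADWA11 shares were lower, under all 3 versions. All 3 ask for 3 of the same 7 microglia genes, so nuclei with less of this RNA fail each of them. Over nuclei with at least 2 genes shared by myeloid cells, the 7 were all below control with ADWA11 (median log2 ratios -1.62 and -1.66 at 7 and 21 dpi). Fewer microglia and less of this RNA per nucleus cannot be told apart by such shares. These versions were chosen after the data had been seen.

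**Figure D1:**
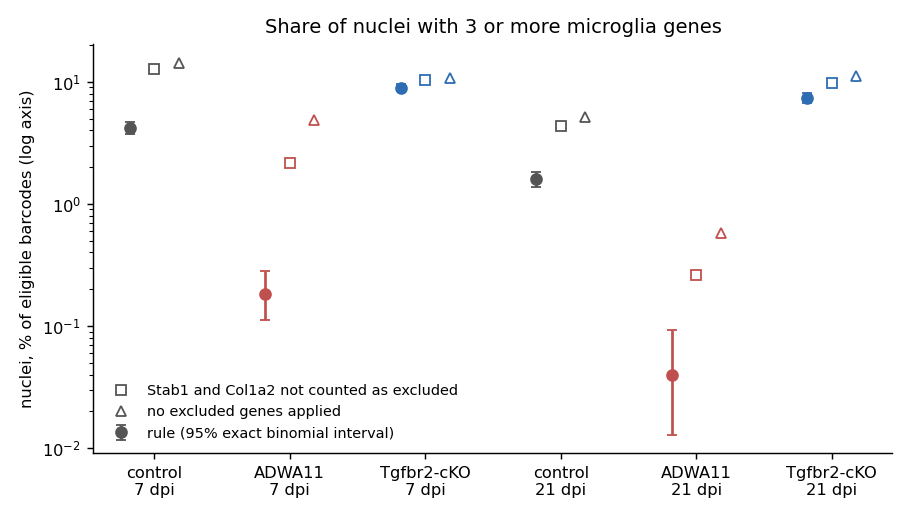
Share of eligible nuclei that met the rule or a version of it (%, log axis) in each of the 6 libraries. Filled circles and bars stand for the rule and its exact 95% interval, squares for the rule without counting Stab1 and Col1a2, and triangles for no excluded genes. At 7 dpi the filled circles put Tgfbr2-cKO (8.96%) above control (4.17%), and the squares put it below (10.3% against 12.7%).

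Nuclei of the myeloid compartment as a whole changed their share too. Nuclei with at least 2 pan-myeloid genes were at 7 dpi 58.4% of the eligible in control, 61.1% in ADWA11 and 26.9% in Tgfbr2-cKO, and at 21 dpi 35.3%, 57.2% and 40.4%. Set over these nuclei instead of all, the log2 ratio of the share of members was 2.17 for Tgfbr2-cKO at 7 dpi. Shares of nuclei depend on what was dissected and recovered, and absolute numbers of microglia were not measured.

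Members were next compared with the other macrophages of their own library, for a panel of genes outside the rule. Border-type macrophages had at least 3 of Cd163, Mrc1, F13a1, Stab1 and Lyve1 and at most 1 microglia gene, and lesion macrophages had at least 3 of Spp1, Plau, Gpnmb, Arg1, Fabp5 and Lgals3 with the same limit. Lesion macrophages also needed at least 1 of the genes shared by myeloid cells, which members and border-type macrophages did not. Csf1r, a gene of the panel, is among these shared genes. The 5 libraries with at least 20 nuclei of each class entered, which left out ADWA11 at 21 dpi and kept the 20 ADWA11 members of 7 dpi. Members are called microglia in this comparison, although the check of the label held less well for these 20. Of 32 genes, 8 were higher in microglia than in border-type macrophages in 5 of 5 libraries and 5 were lower in 5 of 5, each with an exact two-sided sign-flip permutation p of 0.0625, the smallest that 5 libraries allow, and 0.154 after adjustment over the panel. The comparison therefore could not pass a threshold of 0.05, and the values below are read by size and by the number of libraries.

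Olfml3 showed the pattern at a low level. It measured 53.0 CPM in microglia and 17.8 in border-type macrophages of the 7 dpi control, 22.5 and 6.81 with ADWA11, 43.2 and 13.9 in Tgfbr2-cKO, 32.3 and 21.3 in the 21 dpi control, and 38.4 and 8.35 in 21 dpi Tgfbr2-cKO. The mean difference of log2(CPM + 1) was 1.47 ± 0.54 (SD, n = 5 libraries; lowest 0.58 in the 21 dpi control). Nav3, a navigator protein of the cytoskeleton, differed by 2.07 ± 0.58, C1qa, a chain of complement C1q, by 1.13 ± 0.51, and Selplg, the P-selectin ligand, by 1.00 ± 0.54. Tgfbr1 at 0.90 ± 0.44, Mef2c, a transcription factor, at 0.78 ± 0.43, and Itgb5, an integrin subunit, at 0.71 ± 0.36 were also among the 8 genes higher in microglia.

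The 5 genes lower in microglia than in border-type macrophages in each of the 5 libraries were Ms4a7, Maf, Igf1, Nrros and Zeb2. Ms4a7, a membrane protein of brain macrophages other than microglia, differed by -2.24 ± 1.12, and Maf, a macrophage transcription factor, by -1.09 ± 0.42. Igf1, a growth factor, differed by -0.71 ± 0.36, Nrros, which anchors latent TGFβ on myeloid cells, by -0.70 ± 0.27 and Zeb2, a transcription factor, by -0.53 ± 0.20. Tgfbr2 at -0.04 ± 0.27 and Tgfb1, the ligand, at -0.14 ± 0.52 were higher in microglia in only 2 of 5 libraries.

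Against lesion macrophages, 9 of 30 genes were higher in microglia in 5 of 5 libraries and 3 were lower, again at the smallest exact permutation p of 0.0625 (adjusted 0.156). Nav3 (1.48 ± 0.47), C1qa (1.42 ± 0.35), Olfml3 (1.24 ± 0.45) and Selplg (1.14 ± 0.70) again led. Apoe, the lipid carrier, was higher here as well (0.79 ± 0.55), but against border-type macrophages only in 3 of 5 libraries (0.53 ± 0.61). Ms4a7 was lower at -1.37 ± 0.64, Cd74, the invariant chain of MHC class II, at -0.59 ± 0.33 and Zeb2 at -0.35 ± 0.19.

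**Figure D2:**
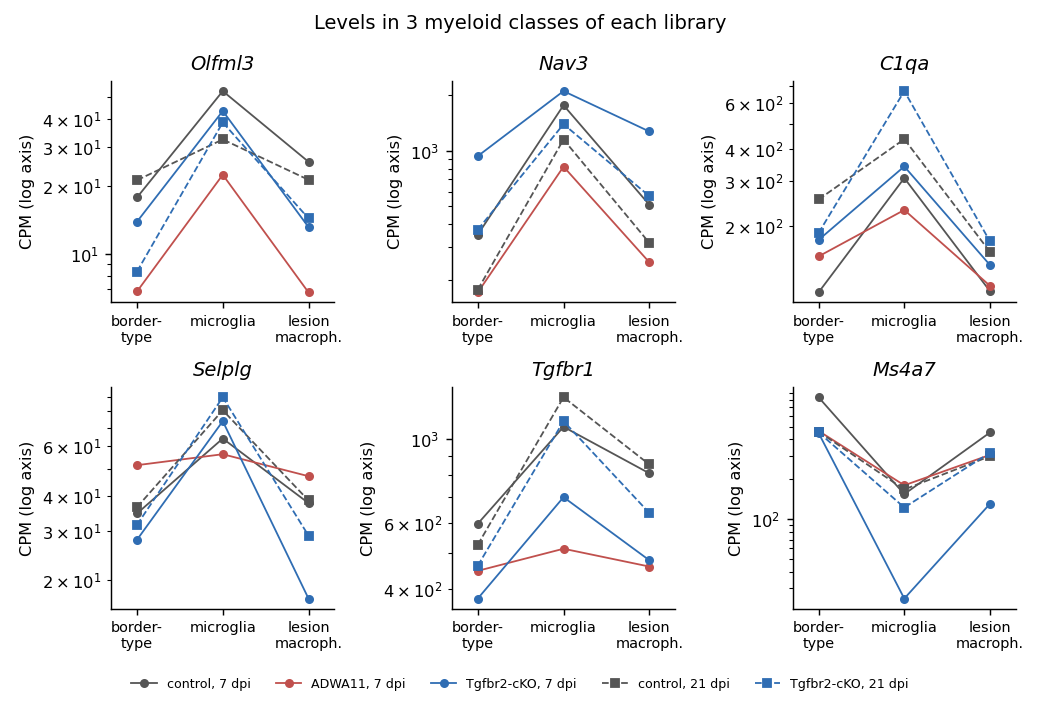
CPM (log axis) of 6 genes in border-type macrophages, microglia and lesion macrophages, with 1 line per library in the 5 libraries used. Members, marked as microglia, held the highest level of Olfml3, Nav3, C1qa, Selplg and Tgfbr1 in each library and the lowest of Ms4a7. The smallest rise in Selplg from border-type macrophages was that of the 20 ADWA11 members (51.4 to 56.2 CPM).

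RNA of other cell types was present in the members. Between control and Tgfbr2-cKO, neuron and fibroblast markers in members followed the order of the library. Markers of neurons, 7 genes in all, summed to 22.4 CPM in 7 dpi control members, 3725 in Tgfbr2-cKO and 11.2 in ADWA11, and to 11.9, 1126 and 0 at 21 dpi. At least 2 neuron genes were detected in 372 of 973 members (38.2%) of the earlier Tgfbr2-cKO library and in 59 of 466 (12.7%) of the later one, against 2 of 330 and 0 of 192 in the controls. The other eligible barcodes of the same libraries showed the same order, with 222 and 6329 CPM for control and Tgfbr2-cKO at the earlier time, and 443 and 3498 at the later one.

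Fibroblast markers went the other way. They summed to 397 CPM in 7 dpi control members, 36.1 in Tgfbr2-cKO and 1552 in ADWA11, and to 901, 74.0 and 312 at 21 dpi, and in other barcodes to 3334, 108 and 2206, then 4205, 279.6 and 2871. At 7 dpi ADWA11 thus stood above control in members and below it in other barcodes. Border macrophage markers, which include Stab1, summed to 1032 CPM in control and 283 in Tgfbr2-cKO members at 7 dpi and to 301 and 465 at 21 dpi. Astrocyte markers ran from 300.0 to 1047 CPM, oligodendrocyte precursor markers from 396 to 1952, and T cell markers stayed at or below 9.55 CPM, with neutrophil markers at 109 CPM in 21 dpi Tgfbr2-cKO and at most 3.53 elsewhere. The part of this other-cell RNA in the differences below was not tested. Counts without the nuclei that held 2 or more genes of another class are given where they matter.

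**Figure D3:**
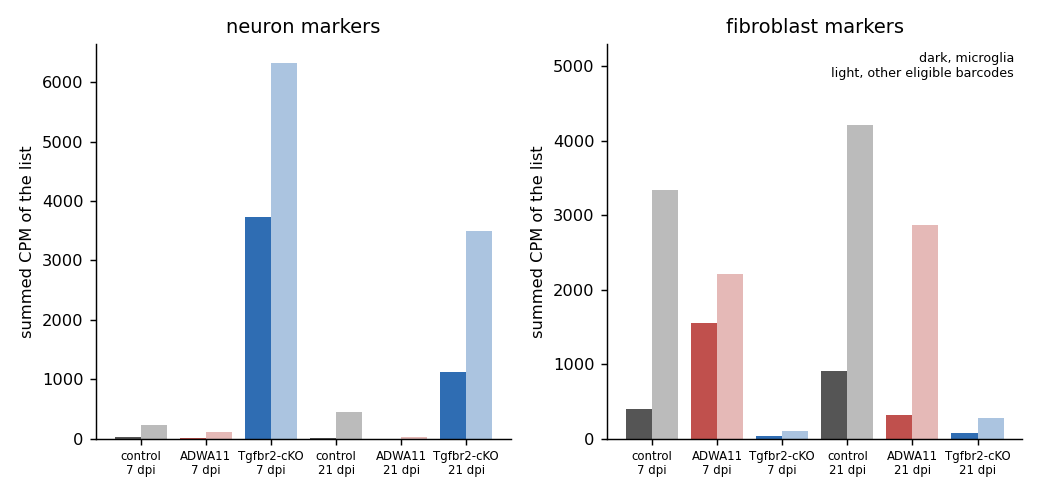
Summed CPM of 7 neuron markers (left) and 6 fibroblast markers (right) in members (dark bars) and in all other eligible barcodes (light bars) of each library. Neuron RNA stood high in the members of Tgfbr2-cKO (3725 CPM at 7 dpi and 1126 at 21 dpi) and fibroblast RNA in those of the other libraries, as in the rest of each library. At 7 dpi fibroblast RNA was higher in ADWA11 than in control members (1552 against 397 CPM) but lower in the other barcodes (2206 against 3334).

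In the following comparisons UMIs of members were summed per library and scaled to CPM of non-mitochondrial UMIs. A gene was measured in a comparison if it had at least 50 UMIs over both libraries, and was called higher or lower if it differed by at least 2-fold with an interval that did not include a ratio of 1. Each interval compares 2 libraries, not the conditions.

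At 7 dpi, microglia of Tgfbr2-cKO lesions had more interferon-stimulated transcripts than those of control lesions. Of 25 genes of cell division 14 were lower over all members, as were 11 of 28 disease-associated genes. With nuclei of mixed content left out, 2 of 23 disease-associated genes were lower, beside 71 of 6143 genes in all. Of 12045 genes measured, 2398 were called higher (19.9%) and 1057 lower (8.78%), with a median log2 ratio of -0.15. The split depended on scaling. Median-of-ratios factors gave 2627 higher and 623 lower, the mean of per-nucleus CPM 2217 and 284, and scaling to the 3288 genes enriched in members, which raised each log2 ratio by 0.71, gave 3822 and 111. It also depended on the choice of members. With none of the excluded genes allowed, 810 were higher and 1036 lower, and of the 2033 genes called with all members that could still be measured, 276 had a ratio of the other sign, 13 of them called. Without nuclei holding genes of another class, 373 were higher and 71 lower, and 101 of 971 had the other sign, 2 of them called. Among the 6292 genes whose level in members was at or above that of other barcodes, 166 were higher and 789 lower.

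The interferon-stimulated list held 24 measured genes, of which 11 were higher and 0 lower in Tgfbr2-cKO, with a median log2 ratio of 0.83 beside -0.15 for all genes. The median ran from 0.83 to 1.69 over the 4 scalings. Median-of-ratios factors and scaling to enriched genes raised every gene by a constant here, so they could not turn this median. Both sexes gave the same direction, with 8 of 17 measured genes higher in female nuclei (17.4% of all genes) and 5 of 13 in male nuclei (12.3%), and without nuclei holding genes of another class 10 of 15 were higher (6.07%). Members of this list are induced by interferon through transcription factors that bind the interferon-stimulated response element.

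That element was searched for in promoters, taken from RefSeq on GRCm38.p6 as the 250 bases before to the 50 bases after the start site. Its core, GAAANNGAAA on either strand, was found in 13 of the 20 list genes with a promoter entry (65%), in 6 of 9 among the higher ones, and in 1079 of all 27025 genes with an entry (3.99%). Of the rule genes and homeostatic genes, 19 had a promoter entry and 0 held it. A match of letters is a description and not a bound site. The promoters of 3 of the higher genes are printed below in the direction of transcription, with capitals marking the core on either strand. They are Ifit3 (chr19:34583279-34583578, plus strand, 2 matches), Rsad2 (chr12:26456403-26456702, minus strand, 1 match) and Isg15 (chr4:156200769-156201068, minus strand, 3 matches that overlap in part and run together in capitals).
Ifit3: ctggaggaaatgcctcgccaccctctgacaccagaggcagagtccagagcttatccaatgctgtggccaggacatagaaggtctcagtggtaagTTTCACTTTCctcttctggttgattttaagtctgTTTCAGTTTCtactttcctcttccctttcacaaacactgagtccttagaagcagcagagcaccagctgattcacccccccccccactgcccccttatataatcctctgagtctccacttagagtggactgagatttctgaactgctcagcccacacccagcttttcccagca
Rsad2: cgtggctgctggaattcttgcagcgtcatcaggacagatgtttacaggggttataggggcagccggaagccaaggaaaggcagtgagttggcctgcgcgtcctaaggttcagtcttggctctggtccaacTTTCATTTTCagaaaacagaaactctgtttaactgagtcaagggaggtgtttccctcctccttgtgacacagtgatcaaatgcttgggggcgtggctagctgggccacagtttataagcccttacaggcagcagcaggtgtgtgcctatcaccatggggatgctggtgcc
Isg15: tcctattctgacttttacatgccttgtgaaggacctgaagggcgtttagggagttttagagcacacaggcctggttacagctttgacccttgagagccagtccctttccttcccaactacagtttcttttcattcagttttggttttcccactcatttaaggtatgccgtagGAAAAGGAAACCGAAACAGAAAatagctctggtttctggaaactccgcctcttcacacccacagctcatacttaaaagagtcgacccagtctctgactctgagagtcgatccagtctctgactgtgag

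Ifit3, which binds viral RNA in a complex with Ifit1, measured 2.87 CPM in 7 dpi control, 16.4 in Tgfbr2-cKO and 11.2 in ADWA11, the last from 2 UMIs, and 1.70, 5.83 and 0 at 21 dpi. Its log2 ratio at 7 dpi was 2.52 (1.36 to 3.99). Rsad2, the antiviral enzyme viperin, was at 2.87, 20.2 and 11.2 CPM at 7 dpi in the same order and at 7.65, 6.36 and 0 at 21 dpi, with a log2 ratio of 2.82 (1.67 to 4.29). The level in Tgfbr2-cKO at 7 dpi was thus the highest of the 6 libraries for both.

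Isg15, a ubiquitin-like modifier, had 1 UMI in control (0.478 CPM) and 61 in Tgfbr2-cKO (7.43 CPM), so that its log2 ratio of 3.96 carried an interval of 1.43 to 9.29. Usp18, which removes Isg15 from proteins, had 23 UMIs in control and was at 11.0 CPM there and 31.3 in Tgfbr2-cKO (log2 ratio 1.51, 0.89 to 2.19). Oasl2, an oligoadenylate synthetase-like protein, measured 18.6 and 54.9 CPM (1.56, 1.09 to 2.07), and Irf7, the transcription factor that amplifies interferon, 2.87 and 12.8 CPM (2.16, 0.99 to 3.64). Bst2, which tethers virus particles, stood at 11.9 and 24.7 CPM (1.05, 0.45 to 1.71). The chemokine Cxcl10 had 1 UMI in control and 141 in Tgfbr2-cKO (5.17, 2.67 to 10.48), and Ifit1, Ifi44 and Zbp1, a sensor of nucleic acids, completed the 11 genes.

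Outside the list, 4 further interferon-related genes were among the 8 highest ratios that passed the naming rule. Ifi206 (0.955 to 15.7 CPM, from 2 UMIs in control, log2 ratio 4.04, 2.16 to 7.1) and Ifi213 (2.39 to 22.3 CPM, 3.22, 1.97 to 4.86) belong to a family of DNA-binding interferon-inducible proteins that lie close together and share sequence. Oas2, an oligoadenylate synthetase, went from 3.82 to 26.9 CPM (2.82, 1.81 to 4.05), and H2-Q6, a non-classical MHC class I gene of a multigene family, by a log2 ratio of 2.60 (1.34 to 4.25). Among the 8 were also Adrb1, the β1 adrenergic receptor (4.78 to 26.3 CPM, 2.46, 1.56 to 3.54), which in other barcodes went from 2.43 to 25.7 CPM, and the predicted gene Gm38604 (2.20, 1.18 to 3.44).

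The same genes were also read outside the members. In all other eligible barcodes, Ifit3 measured 2.63 CPM in control and 4.71 in Tgfbr2-cKO at 7 dpi, Usp18 9.55 and 6.67, and Oasl2 31.9 and 13.7. In all pan-myeloid nuclei, of which 916 of 2917 in Tgfbr2-cKO were members, Ifit3 measured 2.22 and 15.0 CPM, Rsad2 5.47 and 27.3 and Oasl2 27.5 and 45.0. These nuclei thus differed in the same direction as the members. Members held 135 Ifit3 UMIs in Tgfbr2-cKO and all pan-myeloid nuclei 422, so that most lay in other myeloid nuclei. In bulk sums of this kind, fewer nuclei with a transcript and less of it per nucleus cannot be told apart.

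Genes of cell division were lower in Tgfbr2-cKO microglia at 7 dpi over all members. Of 25 measured proliferation genes, 14 were lower and 0 higher, with a median log2 ratio of -1.11, which was -0.94 with median-of-ratios factors, -0.67 with mean CPM per nucleus and -0.40 with the scaling to enriched genes. Mki67, the classic mark of dividing cells, measured 143 CPM in control, 48.4 in Tgfbr2-cKO and 118 in ADWA11 (log2 ratio of Tgfbr2-cKO to control -1.56, -1.78 to -1.34), Top2a, which untangles DNA, 122, 56.6 and 135 CPM (-1.11, -1.33 to -0.88), and Cenpf, a kinetochore protein, 63.0, 16.8 and 28.1 CPM (-1.91, -2.26 to -1.55). In nuclei called female 15 of 19 measured genes were lower, beside 6.79% of all genes, and Mki67 had a log2 ratio of -2.74, whereas in nuclei called male, where 2.49% of all genes were lower, 0 of 11 were lower and the ratio of Mki67 was 0.25. A female or male call stands for 1 mouse per library, so the sex and the animal cannot be told apart, and the difference between both was not tested.

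Dividing nuclei were also counted after thinning to 1000 UMIs. At least 2 proliferation genes were detected in 13.3% of members in the 7 dpi control (9.86 to 17.5%), 8.32% in Tgfbr2-cKO (6.67 to 10.2%) and 20% in ADWA11 (5.73 to 43.7%, 4 of 20 nuclei). Nuclei without myeloid genes gave 6.81%, 1.81% and 13.1%, in the same order. At full depth the members' shares were 32.4%, 26.9% and 45%.

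Genes of the disease-associated state, a programme of phagocytic, lipid-processing microglia, were lower in part. Of 28 measured genes, 11 were lower and 0 higher, with a median log2 ratio of -0.90 that was -0.72, -0.33 and -0.18 under the 3 other scalings. Igf1 measured 947 CPM in control, 189 in Tgfbr2-cKO and 799 in ADWA11 (log2 ratio of Tgfbr2-cKO -2.32, -2.42 to -2.23), Gpnmb 497, 210.0 and 619 (-1.24, -1.36 to -1.13), and Lgals3, the lectin galectin-3, had a ratio of -1.28 (-1.50 to -1.04). Igf1 was lower in female (-2.16) and in male nuclei (-1.75), while Gpnmb was lower in female nuclei (-1.47) and at 0.05 in male nuclei. Igf1 in all other barcodes went from 739 to 54.7 CPM between the same libraries, and it was detected in 23.7% and 2.41% of thinned nuclei without myeloid genes against 37.6% and 13.98% of members. Apoe (3418 and 2106 CPM, -0.70) and Spp1, osteopontin (948 and 542 CPM, -0.81), did not reach 2-fold.

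With nuclei of mixed content left out, 2 disease-associated genes were lower (Igf1 and Ank, a phosphate transporter) and 1 higher (Cd52) of 23 measured. Of all 6143 genes measured there, 71 were lower and 373 higher. The list median was then -0.08. With all members, where 8.78% of all genes were lower and 19.9% higher, 9 of 21 phagocytosis genes were lower and 2 higher. Of lipid genes 10 of 25 were lower and 3 higher in that setting. The medians of phagocytosis and lipid genes, -0.94 and -0.76, became -0.23 and -0.05 with scaling to enriched genes. The sterol exporter Abca1 (2954 to 1020.1 CPM, log2 ratio -1.53, -1.58 to -1.49) and the scavenger receptor Cd36 (-2.35, -2.70 to -2.01) were among the lower lipid genes. Ms4a7, the marker of other macrophages, was at 154 CPM in control and 25.1 in Tgfbr2-cKO (-2.62, -2.88 to -2.36).

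The direction of homeostatic genes outside the rule depended on scaling and on the choice of members. Of 21 measured, 6 were lower (Fcrls, Mertk, Slco2b1, Itgb5, Abi3 and Hpgds) and 0 higher, beside 8.78% and 19.9% of all genes. The median log2 ratio of -0.80 became -0.62 with median-of-ratios factors, -0.08 with scaling to enriched genes and 0.08 with mean CPM per nucleus. Genes of this list were not barred from the enriched genes, so the list could be scaled in part by its own genes. Fcrls, an Fc receptor-like protein of microglia, measured 611 CPM in control and 262 in Tgfbr2-cKO (-1.22, -1.32 to -1.12), and Nav3 1766.5 and 2107 (0.25, 0.20 to 0.31). Without nuclei of mixed content, 0 of 20 were lower and 3 were higher, among them Selplg and Crybb1, with a median of 0.20. In that setting 71 of all 6143 genes were lower and 373 higher.

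TGFβ signalling genes were followed because the deletion is in that pathway, though in other cells. Tgfbr2 in members measured 557 CPM in control, 229 in Tgfbr2-cKO and 304 in ADWA11 at 7 dpi, and 355, 353 and 245 at 21 dpi. In nuclei with fibroblast genes it measured 289, 168 and 215 CPM at 7 dpi and 197, 170.0 and 188 at 21 dpi, where 3′ counts need not mark the deleted exons. The log2 ratio in microglia was -1.28 (-1.39 to -1.17) at 7 dpi, -0.92 in female and -0.86 in male nuclei, and -0.01 (-0.17 to 0.16) at 21 dpi. The receptor transcript was thus lower in Tgfbr2-cKO members at 7 dpi, and within the counting interval of no difference at 21 dpi. After thinning it was detected at 7 dpi in 44.2% of control and 27.95% of Tgfbr2-cKO members. In nuclei without myeloid genes it was detected in 20.5% and 2.66%, so the fall was not confined to members. With scaling to enriched genes, which raised every log2 ratio of this comparison, the 7 dpi ratio fell short of 2-fold. The part of other-cell RNA in this difference was not tested.

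Of 17 measured TGFβ receptor and Smad genes at 7 dpi, 6 were lower in Tgfbr2-cKO and 1 was higher, and the median of -0.66 became 0.05 with the scaling to enriched genes. The lower ones were Tgfbr2, the co-receptor Eng, the receptor Acvrl1, the inhibitory Smad6, the feedback inhibitor Pmepa1 and the TGFβ-induced matrix protein Tgfbi, and the higher one was the co-receptor Tgfbr3. Of 11 ligand and latency genes, Tgfb1 (112 to 52.0 CPM, -1.10, -1.34 to -0.87), Tgfb2, Itgav and Itgb5 were lower, and Ltbp1 (8.60 to 24.2 CPM, 1.496, 0.80 to 2.28) and Ltbp4, which store the latent ligand in matrix, were higher. The median of these genes was -0.79 and became -0.07 with scaling to enriched genes. After thinning, Tgfb1 was detected in 11.2% of control members (8.02 to 15.1%) and 9.04% of Tgfbr2-cKO members (7.32 to 11.0%), with intervals that overlap. In nuclei without myeloid genes it was detected in 3.41% and 0.473%. Of 14 microglia transcription factors, 5 were lower (Irf8, Maf, Runx1, Ikzf1 and Zeb2), with a median of -0.88 that became -0.16 with scaling to enriched genes.

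**Figure D4:**
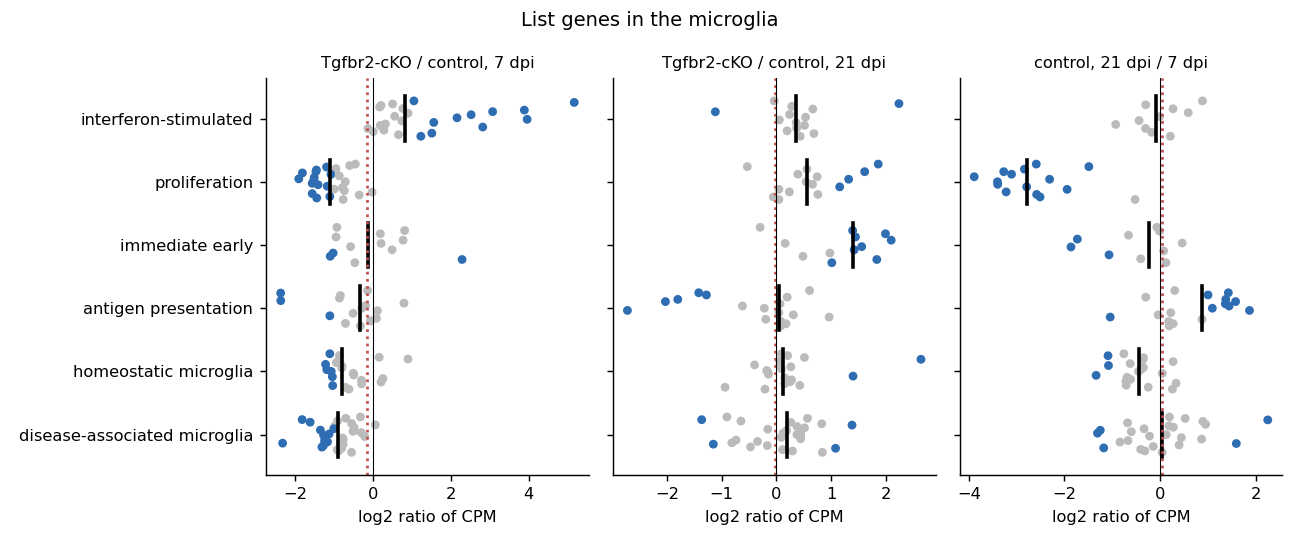
Log2 ratio of member CPM for the measured genes of 6 lists in 3 comparisons, where points are genes (blue if called, grey if not), black bars are list medians and red dotted lines the median of all genes. At 7 dpi the interferon-stimulated list of Tgfbr2-cKO sits above the line (median 0.83 against -0.15), at 21 dpi the immediate early list does (1.41 against -0.02), and between the controls the proliferation list sits below it (-2.79 against 0.04).

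At 21 dpi, microglia of Tgfbr2-cKO lesions had higher immediate early genes than control as a list, with Fkbp5 and Zbtb16 higher among 9 glucocorticoid-responsive genes, and class II antigen presentation genes were lower over all members. Of 9990 genes measured, 821 were called higher (8.22%) and 308 lower (3.08%), with a median log2 ratio of -0.02, and the split moved little with scaling (687 to 906 higher, 267 to 341 lower). Among genes at or above the level of other barcodes, 158 were higher and 99 lower. The control was another library than at 7 dpi, and the effects at both times were not tested against each other.

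Immediate early genes, transcription factors and regulators that respond quickly to many stimuli, were higher as a group. Of 12 measured, 8 were higher and 0 lower, with a median of 1.41 that ran from 1.41 to 1.66 over the 4 scalings. In female nuclei 5 of 10 were higher, beside 541 of all 6558 genes, and in male nuclei 5 of 9, beside 578 of 6152. Egr1, a zinc finger factor, measured 13.6 CPM in control, 54.1 in Tgfbr2-cKO and 0 in ADWA11 (log2 ratio of Tgfbr2-cKO to control 1.99, 1.26 to 2.83), and 21.5, 24.5 and 0 at 7 dpi. The AP-1 subunits Jun (21.3 to 62.6 CPM, 1.56, 0.96 to 2.21), Fos (9.35 to 25.5 CPM, 1.44, 0.54 to 2.49) and Junb (40.8 to 109 CPM, 1.42, 0.99 to 1.88) were called, as were Ier2 (2.10), Nr4a1 (1.83), Btg2 (1.39) and Zfp36, which degrades cytokine messages (1.01).

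In other barcodes of the same libraries Jun was at 18.4 CPM in control and 18.4 in Tgfbr2-cKO, Egr1 at 22.1 and 16.9 and Fos at 7.84 and 10.3. Over all pan-myeloid nuclei, which include members, Jun was at 26.9 and 45.7 CPM, Egr1 at 14.3 and 25.2, Fos at 8.38 and 20.7 and Junb at 34.1 and 64.0. The 4 genes were thus higher in the Tgfbr2-cKO library over the myeloid nuclei as well.

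Fkbp5, a chaperone induced by the glucocorticoid receptor, measured 185 CPM in control and 710 in Tgfbr2-cKO microglia at 21 dpi (1.94, 1.74 to 2.15), and 181 and 243 at 7 dpi. It was higher in female (2.83) and in male nuclei (0.85), and in other barcodes it went from 176 to 417 CPM. Zbtb16, a transcription factor that responds to the same receptor, went from 23.8 to 101 CPM (2.08, 1.53 to 2.69) at 21 dpi and from 4.78 to 157 at 7 dpi (5.04, 4.16 to 6.11), and in other barcodes from 92.4 to 364 and from 38.05 to 260.1. These were 2 of 9 measured glucocorticoid-responsive genes, and the list median was 0.09.

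MHC class II genes, which present antigen to CD4 T cells, were lower in Tgfbr2-cKO at 21 dpi. H2-Aa, H2-Ab1, H2-Eb1, Cd74 and the co-stimulatory Cd80 were 5 of 17 measured antigen presentation genes called lower, and 0 were higher, with a list median of 0.04. Cd74 measured 90.1 CPM in control and 33.7 in Tgfbr2-cKO (log2 ratio -1.42, -1.80 to -1.03), H2-Aa 31.5 and 9.02 (-1.80, -2.52 to -1.09) and H2-Eb1 29.8 and 4.51 (-2.72, -3.65 to -1.85). Class I gene H2-D1 measured 150.5 and 156 CPM. In other barcodes Cd74 went from 89.3 to 29.9 CPM. In nuclei called female 1 of 9 measured genes was lower (Cd74), beside 266 of all 6558 genes. For nuclei called male it was 1 of 9 (Cd80), beside 195 of 6152. Without nuclei of mixed content 6 genes of the list had enough UMIs, with 1 higher (Nlrc5) and 0 lower. Of all 3860 genes measured there, 142 were higher and 67 lower.

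Other genes moved singly. Of homeostatic genes 2 of 20 were higher, Crybb1, a crystallin marking microglia (3.40 to 21.2 CPM, 2.64, 1.23 to 4.55), and Ltc4s, leukotriene C4 synthase (40.8 to 108 CPM, 1.40, 0.97 to 1.86), and 0 were lower, with a median of 0.12. Tgfbr1 measured 1286 and 1112 CPM, and 0 of 17 TGFβ receptor and Smad genes were called. Disease-associated Spp1 (419 to 886 CPM, 1.08, 0.94 to 1.22) and Cd52 (1.38) were higher and Itgax, an integrin of complement receptor 4 (-1.15), and Atp6v0d2, a proton pump subunit (-1.37), were lower, of 27 measured with a median of 0.18. Without nuclei of mixed content Spp1 was lower instead of higher. Apoe measured 4926 CPM in control and 7295 in Tgfbr2-cKO, a log2 ratio of 0.57 (0.53 to 0.61).

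Among the genes of the naming rule, the cytokine receptor chain Il15ra (28.9 to 86.2 CPM, 1.58) and the co-inhibitory receptor gene Lag3 (18.7 to 40.6 CPM, 1.12) were higher and complement C3 (34.0 to 10.3 CPM, -1.72, -2.39 to -1.04) was lower. Of 15 proliferation genes, 4 were higher and 0 lower at low levels. This direction turned when Stab1 and Col1a2 were not counted, with 6 of 21 genes lower and 0 higher.

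Between 7 and 21 dpi, genes of cell division were far lower in control microglia at the later time, and several genes of antigen presentation and complement were higher. Of 7950 genes measured, 663 were higher at 21 dpi (8.34%) and 238 lower (2.99%), with a median log2 ratio of 0.04. With scaling to enriched genes these were 942 and 150. The balance turned among genes at or above other barcodes (180 higher and 208 lower) and without nuclei of another class (121 and 154). It also turned with members thinned (62 and 74) and with the rule after thinning (131 and 145). It held with at least 4 microglia genes (264 and 207), in female (402 and 195) and in male nuclei (186 and 180). Both animals and libraries differed between the time points.

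Of 15 measured proliferation genes, 14 were lower at 21 dpi and 0 higher, with a median of -2.79 that ran from -2.83 to -2.58 over the 4 scalings. Mki67 went from 143 to 15.3 CPM (log2 ratio -3.22, -4.00 to -2.54), Top2a from 122 to 20.4 (-2.58, -3.25 to -1.98) and Cenpf from 63.0 to 4.25 (-3.89, -5.54 to -2.63). All 12 measured genes in female nuclei were lower, beside 195 of 5299 genes in all, and 3 of 3 in male nuclei, beside 180 of 4071. After thinning, 2.60% of 21 dpi control members (0.851 to 5.97%) had at least 2 such genes against 13.3% at 7 dpi, and in nuclei without myeloid genes 1.64% against 6.81%. In Tgfbr2-cKO the share at 21 dpi was 2.58% (1.34 to 4.45%).

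Of 17 antigen presentation genes, 8 were higher at 21 dpi and 1 lower, with a median of 0.88 (0.46 to 1.09 over the 4 scalings). Cd74 went from 33.4 to 90.1 CPM (1.43, 0.98 to 1.89), H2-Aa from 10.5 to 31.5 (1.58, 0.78 to 2.41) and H2-D1 from 54.9 to 150.5 (1.45, 1.10 to 1.80). The rise of Cd74 was not confined to members. In the same control libraries it went from 51.5 to 154 CPM in lesion macrophages and from 28.8 to 219 in border-type macrophages. After thinning it was detected in 2.42% and 8.33% of members, and in 1.85% and 5.52% of nuclei without myeloid genes. H2-D1 was higher in female (1.37) and male nuclei (1.69), whereas H2-Eb1 was at 0.67 and -0.24. The complement genes C3 (4.78 to 34.0 CPM, 2.83, 1.81 to 4.00), C4b (18.6 to 51.0 CPM, 1.45, 0.85 to 2.07) and Itgax (19.1 to 57.8 CPM, 1.60, 1.01 to 2.20) were the 3 higher of 11, and C1qa measured 307 and 435 CPM. After thinning C3 was detected in 0.303% and 1.56% of control members at 7 and 21 dpi, and in 0.150% and 4.43% of nuclei without myeloid genes. The chemokines Ccl4 (21.0 to 80.8 CPM, 1.94, 1.41 to 2.49) and Cxcl16 (13.8 to 39.1 CPM, 1.50, 0.80 to 2.22) were the 2 higher of 12 cytokine genes.

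The lipid droplet protein Plin2 went from 486 to 121 CPM (-2.01, -2.27 to -1.75), Spp1 from 948 to 419 (-1.18, -1.32 to -1.03) and the growth factor Csf1 from 188 to 79.1 (-1.25, -1.59 to -0.92), while Atp6v0d2 went from 64.9 to 310.3 CPM (2.26, 1.97 to 2.55). Disease-associated genes as a list had a median of 0.05, with 2 higher and 3 lower of 25. Of 19 homeostatic genes 3 were lower (Ltc4s, Golm1 and Bin1) and 0 higher, with a median of -0.45. Interferon-stimulated genes did not move as a list, with 0 of 10 called in either direction. The genes with the highest ratios over all, such as the astrocyte transporter Slc1a2 (1.91 to 150.5 CPM in members, 32.1 to 189 in other barcodes), belong to other cells, and such genes were left out by the naming rule.

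With ADWA11 too few members remained for a like description, and values are given as those of 20 nuclei at 7 dpi and 5 at 21 dpi. At 7 dpi 597 of 6560 measured genes were higher (9.1%) and 591 lower (9.01%), and 1266 and 163 with scaling to enriched genes. The sign depended on the choice of members. Of the called genes still measured, 290 of 705 had the other sign with at least 4 microglia genes (2 nuclei) and 284 of 457 without nuclei of another class (1 nucleus). With none of the excluded genes allowed (2 nuclei) it was 10 of 143, in female nuclei 157 of 606 and in male nuclei 2 of 707. Of 19 homeostatic genes outside the rule, 16 were lower and 0 higher, with a median log2 ratio of -1.37 (-0.85 with scaling to enriched genes). Golm1, a Golgi protein, measured 203 CPM in control and 33.7 in ADWA11 members (-2.59, -4.04 to -1.45), and Tgfbr1 1074.5 and 512 (-1.07, -1.39 to -0.77). Of 15 TGFβ receptor and Smad genes 2 were higher (Tgfbr3 and Smad6) and 6 were lower, among them Smad3 (-1.30, -2.31 to -0.44), which carries the signal, and Smad7 (-2.10, -3.56 to -0.97) and Skil (-1.58, -2.54 to -0.76), which limit it and are induced by it. Itgb8, the β subunit of the blocked integrin, was at 20.1 CPM in control and 95.6 in ADWA11 members, the latter from 17 UMIs (2.25, 1.35 to 3.10), and fibroblast and oligodendrocyte precursor markers were highest in the same 20 nuclei (1552 and 1952 CPM).

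At 21 dpi, 374 of 4898 genes were higher (7.64%) and 363 lower (7.41%), with 462 and 247 under median-of-ratios factors and 605 and 169 with scaling to enriched genes. Of the called genes still measured, 343 of 484 had the other sign with at least 4 microglia genes (1 nucleus) and 234 of 280 without nuclei of another class (1 nucleus). With none of the excluded genes allowed (2 nuclei) it was 18 of 268. Of 17 homeostatic genes 10 were lower and 0 higher in the 5 nuclei. The class II genes were higher, with Cd74 at 90.1 CPM in control and 690.4 in ADWA11 members (2.94, 2.31 to 3.53), Ciita, their master regulator, at 29.8 and 668 (4.49, 3.74 to 5.23) and H2-Aa at 31.5 and 512 (4.03, 3.21 to 4.81). Dendritic cell markers summed to 713 CPM in these nuclei and to at most 60.4 in the members of any other library, and their part in the result was not tested.

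The same genes were therefore also read over all pan-myeloid nuclei, 4616 in control and 6670 in ADWA11 at 7 dpi and 4257 and 7245 at 21 dpi, which were chosen without the genes of the rule, though Csf1r is both on the homeostatic list and among the genes that chose them. Of 21 homeostatic genes at 7 dpi, 15 were below control and 4 above with intervals that left out a ratio of 1, 10 of them lower by 2-fold or more, beside 28.5% of all genes below, 35.1% above and 3.79% lower by 2-fold, and the median log2 ratio was -0.999 beside 0.04 for 16875 genes. At 21 dpi 13 of 19 were below, 6 above and 8 lower by 2-fold, beside 39%, 26.5% and 13.3% of all genes, with a median of -0.92 beside -0.07. Genes of the disease-associated list had medians of 0.03 and 0.17 and went both ways. By 2-fold or more, 6 of 29 were lower and 3 higher at 7 dpi, and 6 of 28 lower and 5 higher at 21 dpi. Of all genes 5.32% and 4.6% were higher by as much. The level in such a mixed class is set both by how many of its nuclei are microglia and by the RNA of each, which cannot be told apart here.

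Nav3 went from 812 to 213 CPM at 7 dpi (log2 ratio -1.93) and from 434 to 43.9 at 21 dpi (-3.31), Fcrls from 336 to 99.7 (-1.75) and from 179 to 23.0 (-2.96), and Olfml3 from 30.7 to 7.11 (-2.11) and from 23.9 to 8.61 (-1.47). Crybb1 went from 3.55 to 0.195 CPM (-4.19) at 7 dpi and from 1.10 to 0.173 (-2.67) at 21 dpi. Tgfbr1 stood closer to control, going from 887 to 444 (-0.999) and from 836 to 354 (-1.24). Mertk, a receptor for dying cells shared by macrophages, was at 1596 and 1758 CPM (0.14), then 1238 and 2082 (0.75). In Tgfbr2-cKO the median of the homeostatic list over pan-myeloid nuclei was -0.59 at 7 dpi and 0.32 at 21 dpi.

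Over the same nuclei, the 5 genes used for border-type macrophages were read as well. Mrc1, the mannose receptor, measured 206 CPM in control and 822 in ADWA11 at 7 dpi (log2 ratio 2.00) and 273 and 798 at 21 dpi (1.55). F13a1, a clotting factor subunit of macrophages, had ratios of 1.03 and 0.47, Cd163, the haemoglobin scavenger receptor, 1.23 and 0.34, and Stab1 0.30 and 0.14, and the intervals of Lyve1 included a ratio of 1 at both times. Thus 3 of the 5 were higher by 2-fold or more at 7 dpi and 1 at 21 dpi, beside 5.32% and 4.6% of all genes. Genes of lesion macrophages went both ways, with Lgals3 at 0.85 and 1.25, Gpnmb at -0.0019 and 0.70 and Spp1 at 0.06 and -1.82. Lpl, lipoprotein lipase, which is also a disease-associated gene of microglia, measured 185 and 787 CPM (2.09) and 376 and 824 (1.13).

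**Figure D5:**
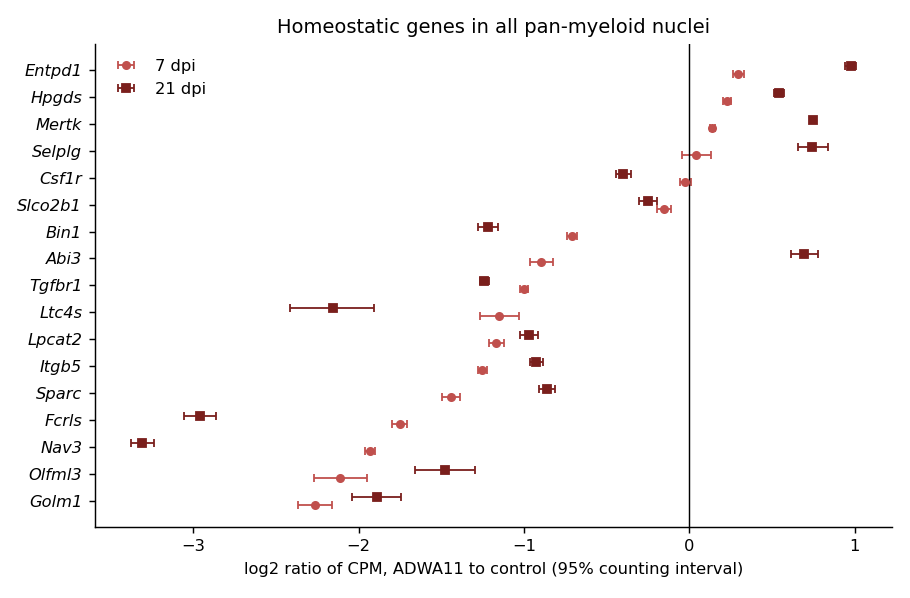
Log2 ratio of CPM over all pan-myeloid nuclei, ADWA11 against control, at 7 and 21 dpi for 17 of the homeostatic genes with at least 50 UMIs in both comparisons. Most points lie below 0 at both times, with Nav3 (-1.93 and -3.31) and Fcrls (-1.75 and -2.96) among the lowest and Mertk (0.14 and 0.75) above 0.

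Within a library, members varied most in Apoe. After thinning to 1000 UMIs its variance over its mean was 15.2 in 7 dpi control, 16.8 in 7 dpi Tgfbr2-cKO, 14.1 in 21 dpi control and 28.1 in 21 dpi Tgfbr2-cKO, the highest median of 1782 genes ranked. Spp1 ranked 3 (6.04), Fth1, ferritin heavy chain, 5 (5.05), Cst3, the protease inhibitor cystatin C, 7 (4.86) and C1qa 10 (3.48). The others of the first 10 were Malat1, a nuclear RNA, Tmsb4x, which binds actin, and Csmd1, Opcml and Lrp1b, which are abundant in neurons. A thinned member held a median of 7 homeostatic genes outside the rule in 7 dpi control, 7 in 7 dpi Tgfbr2-cKO, 6 in 21 dpi control and 7 in 21 dpi Tgfbr2-cKO, and of 6, 5, 6 and 5 disease-associated genes, against 3.5 and 7.5 in the ADWA11 members at 7 dpi.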

How the data were processed

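The deposited files were filtered UMI counts per gene and barcode for each of the 6 libraries, made by the authors with Cell Ranger on mm10 (version 7.1.0 per the labels and 7.2.0 in the file headers). The counts were not normalised, and the 32285 features were used as they stood. Clec7a and Mx1 were not analysed here. Some list genes that entered the counts and medians are not reported here singly.

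The members and the 18 gene lists were chosen with earlier results of these data known. Doublets were not called, and members with 2 or more genes of another class were left out as an alternative. UMIs were summed over members of a library. Ratios have exact conditional binomial intervals and shares have Clopper-Pearson intervals. A gene with 0 UMIs in a library was given a bound at 3 UMIs. Thinning drew 1000 UMIs per nucleus. Nuclei with UMIs of Xist but of no Y-linked gene were taken as female, and those with the reverse as male.

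The genes named were the 8 highest and 8 lowest called ratios with at least 100 UMIs, a level at or above other barcodes, under 25% of UMIs in 5 nuclei and the same sign in both sexes, together with rule genes, Tgfbr2, Tgfb1, up to 4 most abundant members of each list and any called member. Enriched genes for scaling were at or above their level in other barcodes in each of the 4 control and Tgfbr2-cKO libraries. They had at least 200 member UMIs over these 4, and mitochondrial, sex, rule and excluded genes were left out, whereas genes of the lists were not. The ADWA11 libraries did not enter this choice. Scaling to enriched genes could thus divide a list in part by its own genes. Scripts used Python 3.11.15, NumPy 2.4.6, SciPy 1.17.1, pandas 2.3.3 and matplotlib 3.10.9, and were checked on simulated data. Promoters came from RefSeq on GRCm38.p6. Alternatives changed the rule, the filter, the sex, the depth and the scaling.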

Additional observations from a re-analysis of the deposited data

Results flagged for a closer look

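Among the named and listed genes that were at or above their level in other barcodes in both comparisons, and that the choice of members did not use, 5 were called in opposite directions in Tgfbr2-cKO microglia at 7 and at 21 dpi, each against the control of its own time. The difference between the times was not tested, and each value compares a pair of libraries. Cenpf had a log2 ratio of -1.91 at 7 dpi and 1.61 at 21 dpi, and Ect2, which acts in cytokinesis, -1.56 and 1.32. Tmem268, a membrane protein, had -1.12 and 1.33. The antisense RNA Far1os had 1.33 and -1.10, and Lrrc4, a synaptic adhesion protein, 1.18 and -1.02. Outside those conditions, Hmox1, a heme-degrading enzyme below its level in other barcodes at 7 dpi, had -1.19 and 1.18, and Stab1, which was used to choose the members, had -1.80 and 1.42. For Cenpf and Ect2 the 21 dpi control level was low (4.25 and 5.10 CPM), and in nuclei called male their ratios at 7 dpi were 0.86 and 0.52. The control levels themselves differed between 7 and 21 dpi, with Lrrc4 at 32.0 and 138 CPM and Tmem268 at 57.3 and 19.6. At 21 dpi the proliferation list had 4 of 15 genes higher and 0 lower, and 6 of 21 lower and 0 higher when Stab1 and Col1a2 were not counted.

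With ADWA11, Irf8, a transcription factor of microglia and dendritic cells, had a log2 ratio of -1.50 at 7 dpi (334 CPM in control and 118 in ADWA11 members) and 1.52 at 21 dpi (233 and 668 CPM). This difference was not tested, the 21 dpi value rests on 5 nuclei, and dendritic cell markers summed to 713 CPM in them.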

How the results depend on the processing

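The groups compared were 1 library each and had no replicate numbers that pair them, and a test paired by the sex of the nuclei was not run. The comparison of myeloid classes was itself paired by library. The number of nuclei limits the ADWA11 values, which rest on 20 and 5 members, and under some settings on fewer. At 7 dpi 2 nuclei had at least 4 microglia genes, 2 had none of the excluded genes, 1 remained without nuclei of another class and 1 with the rule after thinning, and at 21 dpi these numbers were 1, 2, 1 and 0. Settings named with Stab1 and Col1a2, with no excluded genes, with at least 2 of the 7 microglia genes and with scaling to enriched genes were chosen after the data had been seen. Causes of the changes below were not tested.

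Log2 ratios of the share are given in the order Tgfbr2-cKO at 7 dpi, ADWA11 at 7 dpi, Tgfbr2-cKO at 21 dpi, ADWA11 at 21 dpi and the 21 against the 7 dpi control, naming those that moved. Without counting Stab1 and Col1a2 they were -0.29 (reversed), -2.56, 1.17 and -4.07 for the first 4. With no excluded genes they were -0.43 (reversed), -1.56, 1.12 and -3.15. With at least 2 microglia genes they were 0.90, -2.95, 1.70, -2.45 and -0.91. With at least 4 the first 3 were 1.32, -6.71 and 2.64. With none of the excluded genes allowed, Tgfbr2-cKO at 7 dpi was 3.60, ADWA11 at 7 dpi -3.71 and the 21 against 7 dpi control 0.60 (reversed). In nuclei called female, ADWA11 at 7 dpi was -5.46 and Tgfbr2-cKO at 21 dpi 1.96, and in nuclei called male, Tgfbr2-cKO at 7 dpi was 0.91 and ADWA11 at 7 dpi -3.47. Without nuclei holding genes of another class the values were 1.35, -7.37 and 2.49, and -1.87 between the controls. With the rule applied after thinning, ADWA11 at 7 dpi was -6.96, Tgfbr2-cKO at 21 dpi 1.71 and ADWA11 at 21 dpi, with 0 members, at most -4.01. Over pan-myeloid nuclei Tgfbr2-cKO at 7 dpi was 2.17 and the controls -0.71, and with neural barcodes left out of the denominator Tgfbr2-cKO was 2.17 at 7 dpi and 2.51 at 21 dpi.

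Counts of called genes mostly fell under settings with fewer genes measured and rose under settings with more. In Tgfbr2-cKO at 7 dpi the count was 1934 with at least 200 UMIs, 2243 in female and 955 in male nuclei, 955 among genes at or above other barcodes, 643 with members thinned, 1846 with none of the excluded genes, 554 with the rule after thinning and 444 without nuclei of another class. In ADWA11 at 7 dpi it was 2178 with at least 1 UMI, 488 with at least 200, 1919 with at least 2 and 224 with at least 4 microglia genes, 321 in female and 780 in male nuclei, 154 thinned, 205 with none of the excluded genes, 49 with the rule after thinning and 179 without nuclei of another class. In Tgfbr2-cKO at 21 dpi it was 1930 with at least 1 UMI, 412 with at least 200, 1994 with at least 2 and 634 with at least 4 microglia genes, 257 among genes at or above other barcodes, 162 thinned, 126 with the rule after thinning, 723 with the filter of the study's methods and 209 without nuclei of another class. In ADWA11 at 21 dpi it was 1173 with at least 1 UMI, 398 with at least 200, 1426 with at least 2 and 62 with at least 4 microglia genes, 447 in female and 367 in male nuclei, 39 thinned, 1260 with no excluded genes applied, 294 with none allowed and 37 without nuclei of another class. Between the controls it was 2306 with at least 1 UMI, 208 with at least 200, 2146 with at least 2 and 471 with at least 4 microglia genes, 597 in female and 366 in male nuclei, 388 among genes at or above other barcodes, 136 thinned, 1474 without counting Stab1 and Col1a2, 1489 with no excluded genes applied, 189 with none allowed, 276 with the rule after thinning and 275 without nuclei of another class.

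Reversed list medians were those of complement (2.70 with at least 4 microglia genes, 0.22 with no excluded genes, 2.20 without nuclei of another class) and homeostatic genes (1.59 with at least 4, 0.23 thinned, 1.64 without nuclei of another class) for ADWA11 at 21 dpi, of homeostatic genes (1.33 with the rule after thinning) and immediate early genes (1.32 with at least 4, 0.51 in female nuclei) for ADWA11 at 7 dpi, and of proliferation for Tgfbr2-cKO at 7 dpi (0.23 in male nuclei). Among the genes named for the highest and lowest ratios, those reversed were Adgb (1.25), F11r (1.34) and Mlxipl (1.97) for ADWA11 at 7 dpi with the rule after thinning, and for ADWA11 at 21 dpi Basp1 and Ifitm10 (0.77 and 0.39 with at least 4, 0.27 and 0.078 without nuclei of another class) and Fcrls (0.35 with at least 4). Sign changes of other listed genes, such as Spp1 at 21 dpi and Mki67 at 7 dpi, are given with their results. Of the other medians 155 moved and 451 stayed, and of the other values of the genes named for their ratios 189 moved and 476 stayed. Called genes of ADWA11 at 21 dpi with the rule after thinning, and 48 list medians with over 50% of genes at a bound, could not be given.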

Other observations

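Several lists not described above are given here. Of all genes, 19.9% were higher and 8.78% lower in the earlier Tgfbr2-cKO library, 8.22% and 3.08% in the later one, and 9.1% and 9.01% with ADWA11 at 7 dpi. Iron and heme genes in Tgfbr2-cKO at 7 dpi had 5 of 10 lower, among them the heme oxygenase Hmox1 (log2 ratio -1.19, -1.56 to -0.82) and the ferritin light chain Ftl1 (-1.11, -1.24 to -0.99), and 1 higher, the transferrin receptor Tfrc (2.13, 1.26 to 3.16), with a list median of -0.99 (-0.28 with scaling to enriched genes). Genes of CSF1 signalling and growth factors in ADWA11 at 7 dpi had 5 of 9 lower, with a median of -1.16, and Csf1r, on which microglia depend, measured 626 CPM in control and 236 in ADWA11 members. Of hypoxia and glycolysis genes 2 of 16 were higher and 2 lower in Tgfbr2-cKO at 7 dpi (median 0.03), and 0 of 16 were called at 21 dpi. Of inflammatory cytokine genes, Ccl12 (2.09, 1.34 to 2.95) and Cxcl2 were higher and Tnf, Cxcl16 and Tnfaip3 lower of 15 in Tgfbr2-cKO at 7 dpi, and 0 of 15 were called at 21 dpi. Purinergic and pattern receptor genes had 3 of 15 lower and 0 higher in Tgfbr2-cKO at 7 dpi and 1 of 14 higher and 0 lower at 21 dpi.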
